A study of Mus musculus with 8 samples.

Results

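The microRNAs (miRs) of the miR-99/100 and miR-125 families were followed in callus, the repair tissue that fills a bone gap. The arrays carried 1079 murine miRs, and 7 of them were selected by name as arms of these families: mmu-miR-99a-5p, mmu-miR-99b-5p, mmu-miR-100-5p, mmu-miR-125a-5p, mmu-miR-125b-5p, mmu-miR-99b-3p and mmu-miR-125a-3p. All 7 were detected on all 8 arrays and so belonged to the 310 miRs that could be compared. The callus came from CD-1 mice of both sexes, between 9 and 14 weeks old with no genetic modification named in the labels, whose right femur had been cut and held by a pin and a clip. In the Union group (4 mice, P17 to P20) the gap measured 0.25 mm. In the Non-union group (4 mice, P13 to P16) it measured 1.8 mm and the periosteum, the membrane that covers bone and supplies repair cells, had also been stripped next to the gap. The effects of gap size and of stripping therefore cannot be told apart. All calluses were taken 7 days after surgery, and the group names stand for the gap that was made.

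A miR is a short RNA that guides a silencing complex to messenger RNAs. Its bases 2 to 8, the seed, choose most of its targets, and miRs that share a seed are grouped in a family. MiR-125 is the vertebrate relative of lin-4, the first miR to be described, and its genes lie beside those of miR-99/100 and of let-7. Mesenchymal and blood-forming progenitor cells are known to express both families. The mTOR kinase, a regulator of cell growth, is a known target of miR-99/100. In cultured mesenchymal cells, miR-125b and miR-100 are known to hold back differentiation into osteoblasts.

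The mature sequences of the 5p arms are shown with the seed in capitals, because the seed divides the members into their families. They are printed 5′ to 3′ and come from RefSeq, build GRCm38.p6, in which all 7 members were found. The seed of miR-99a-5p, miR-100-5p and miR-99b-5p is one and the same:
miR-99a-5p: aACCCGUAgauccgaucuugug
miR-100-5p: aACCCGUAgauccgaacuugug
miR-99b-5p: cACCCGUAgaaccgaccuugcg
Counted from 1 at the 5′ end and with the base of miR-99a-5p first, miR-100-5p differed from miR-99a-5p by U16A alone, and miR-99b-5p differed by A1C, U11A, U16C and U21C. How far a probe for one of them also binds another was not tested. The seed of miR-125a-5p and miR-125b-5p is also shared:
miR-125a-5p: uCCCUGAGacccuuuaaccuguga
miR-125b-5p: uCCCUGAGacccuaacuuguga
These were identical over their first 13 bases and had lengths of 24 and 22 bases. The 3p arms come from the opposite side of the same hairpins, and their seeds belong to neither family:
miR-99b-3p: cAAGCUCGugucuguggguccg
miR-125a-3p: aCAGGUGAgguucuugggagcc

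The genes lie in 3 clusters, each with a miR-99/100 gene, a let-7 gene and a miR-125 gene. On chromosome 17, Mir99b, Mirlet7e and Mir125a lie within 692 bases, inside the protein-coding gene Spaca6. MiR-99b-5p comes from chr17:17830194-17830215, miR-99b-3p from chr17:17830232-17830253, miR-125a-5p from chr17:17830817-17830840 and miR-125a-3p from chr17:17830855-17830876, all on the + strand. On chromosome 9, Mir100, Mirlet7a-2 and Mir125b-1 span 50578 bases within the long non-coding RNA gene Mir100hg, with miR-100-5p at chr9:41531437-41531458. On chromosome 16, Mir99a, Mirlet7c-1 and Mir125b-2 span 47408 bases, with miR-99a-5p at chr16:77598940-77598961. MiR-125b-5p is made from 2 loci, chr9:41581940-41581961 and chr16:77646279-77646300, so its signal is a sum over both.

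Each callus was measured on 1 array of a single slide, and each group filled 1 row of it, so row and group cannot be told apart. Between 324 and 366 murine miRs were detected on the Non-union arrays and between 361 and 391 on the Union arrays. Negative control spots gave a net signal between 51.2 and 55.0 units on the Non-union arrays and between 46.9 and 47.9 units on the Union arrays, so that the groups did not overlap. The part of this background in the differences of the members was not tested. The array P19 of the Union group lay nearer the Non-union mean than the Union mean for 231 of the 310 compared miRs (74.5%). The differences of the 5p members and the counts of members called are given with and without it. P20 lay nearer the other group's mean for 132 miRs (42.6%), and the Non-union array P14 for 172 (55.5%). P19 was picked for its nearness to the other group, so larger differences without it are no independent support. Cartilage miRs (miR-455-3p, miR-455-5p, miR-140-3p, miR-140-5p) were detected on all 8 arrays. So were 4 of 6 skeletal muscle miRs, 3 of 4 miRs of myeloid cells and leukocytes and all 3 red blood cell miRs that were analysed. The callus samples thus gave signals of miRs linked to several tissues, and their tissue make-up was not measured. Signals are given in units of the scanner software, merged over the 40 spots of a miR. Differences are Non-union minus Union on the log2 scale after quantile normalization over all murine miRs, with the standard error (SE) and the adjusted p from limma. The number of arrays limits their precision. A difference in level between miRs is not a ratio of their amounts, because probes differ in brightness. Pairs of miRs were therefore read only for how their difference varied over the arrays and groups.

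All 5p arms of the miR-99/100 family had a higher mean in the Non-union group, and no difference passed the adjusted threshold. The merged signal of miR-99a-5p was 612, 624, 609 and 589 units on the Non-union arrays P13 to P16 and 600, 466, 595 and 344 units on the Union arrays P17 to P20. P17 and P19 lay among the Non-union values, while P18 and P20 lay below them. MiR-99a-5p had a log2 difference of 0.32 (SE 0.24, adjusted p = 0.407), a fold change (FC) of 1.25. Without P20, the array with the lowest value, it was 0.16, and without P19 it was 0.49 (SE 0.21, adjusted p = 0.131). In a bulk sample such as this callus RNA, fewer cells of a type and less RNA per cell cannot be told apart.

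MiR-99b-5p had merged signals of 141, 128, 139 and 128 units on P13 to P16 and of 109, 95.5, 122 and 112 units on P17 to P20. Without normalization the log2 difference was 0.30 (limma, SE 0.17, adjusted p = 0.489). Every Non-union array then lay above every Union array, with a two-sided exact permutation p of 0.0286, the smallest that 4 arrays against 4 allow. Such a separation with the Non-union group higher was found for 5 of the 310 miRs without normalization (1.61%), and the negative control spots, named above, separated the groups in the same direction. After quantile normalization the groups overlapped, with P14 below P19 and P20. The log2 difference of miR-99b-5p was then 0.48 (SE 0.22, adjusted p = 0.378, FC 1.40), and 0.60 without P19 (SE 0.22, adjusted p = 0.097).

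MiR-100-5p gave 209, 222, 193 and 160 units on P13 to P16 and 213, 177, 203 and 133 units on P17 to P20. The groups overlapped broadly, and P16 and P20 were the lowest of their groups. The normalized log2 difference of miR-100-5p was 0.36 (SE 0.20, adjusted p = 0.378, FC 1.28), against 0.12 without normalization. Without P19 it was 0.52 (SE 0.16, adjusted p = 0.0751), the lowest adjusted p of any member under any setting that was run. On the normalized log2 scale miR-100-5p was 7.70 ± 0.06 (SD, n = 4) on the Non-union arrays and 7.35 ± 0.32 (SD, n = 4) on those of the other group, with P19 above all Non-union arrays. The small Non-union SD belongs to that scale, where P13 and P14 had the same value (7.65). The merged signals of the Non-union arrays spread more widely.

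The 5p arms of the miR-125 family also had higher means in the Non-union group. MiR-125a-5p gave 248, 228, 262 and 241 units on P13 to P16 and 197, 188, 245 and 232 units on P17 to P20. P17 and P18 lay below all Non-union arrays, while P19 and P20 lay among them. The log2 difference of miR-125a-5p was 0.41 (SE 0.26, adjusted p = 0.386, FC 1.33) and 0.54 without P19 (SE 0.25, adjusted p = 0.157). Without P17 it was 0.26 and without P16 it was 0.29. Without normalization it was 0.19.

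MiR-125b-5p gave 2504, 2584, 2318 and 2092 units on P13 to P16 and 2047, 1974, 2289 and 1993 units on P17 to P20. All Union arrays but P19 lay below all Non-union arrays, and P19 exceeded P16 only. For miR-125b-5p the log2 difference was 0.28 (SE 0.20, adjusted p = 0.387, FC 1.21). Without P19 it was 0.38 (SE 0.19, adjusted p = 0.167), and without P17 it was 0.18. The 2 arms that would separate its loci, miR-125b-1-3p and miR-125b-2-3p, were detected on no array.

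**Figure D1:**
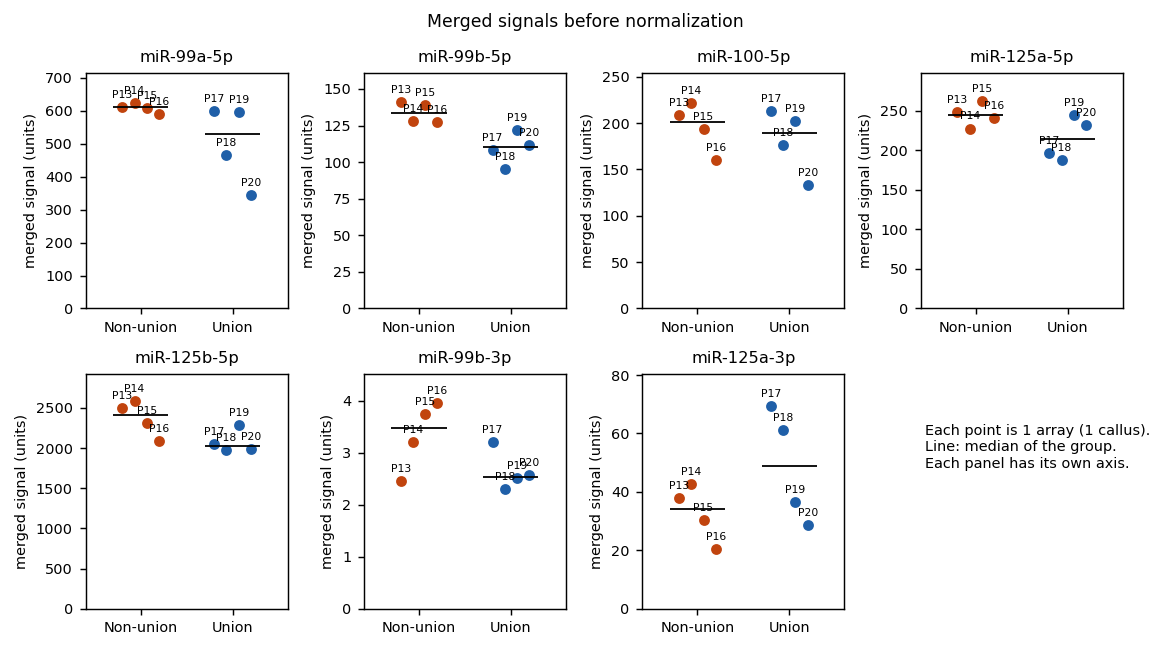
Merged signals of the 7 members before normalization, in units of the scanner software on an axis from 0 in each panel, with 1 point for each array and a line at the median of each group. The groups do not overlap for miR-99b-5p, where P13 to P16 lie between 128 and 141 units and P17 to P20 between 95.5 and 122 units, and they overlap for the other members.

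MiR-125a-3p was the only member with a lower mean in the Non-union group. Its merged signals were 37.8, 42.6, 30.2 and 20.5 units on P13 to P16 and 69.4, 61.0, 36.4 and 28.6 units on P17 to P20. P17 and P18 stood above all other arrays, and P19 and P20 lay among the Non-union values. In miR-125a-3p this gave a log2 difference of -0.29 (SE 0.22, adjusted p = 0.410), and -0.54 without normalization (adjusted p = 0.505). Its sign was negative under all 19 alternatives, with a range from -0.54 to -0.09.

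MiR-99b-3p had merged signals of 2.46, 3.21, 3.73 and 3.95 units on P13 to P16 and of 3.21, 2.31, 2.51 and 2.57 units on P17 to P20. These lay close to 2.16 units, the lowest signal that the software called detected on any array, and their errors as given by the software were between 20.6% and 32.5% of the signal. For the 5p members these errors were between 7.55% and 9.31%. At most 8 of its 40 spots on an array were well above background, while all 40 were for each 5p member. The log2 difference of miR-99b-3p after quantile normalization over all murine miRs was 2.27 (SE 0.82, adjusted p = 0.313, FC 4.81). This was the only member with an unadjusted limma p under 0.05, the threshold of the study, and the only one with an FC of 2 or more. Of its 8 normalized values, 5 had been placed below 1.11, which is log2 of that lowest detected signal, and 13 of the 310 miRs had at least 1 such value. Where only the detected miRs entered the quantile normalization, its difference was 0.36 (adjusted p = 0.410). It was 0.32 without normalization (adjusted p = 0.505) and 0.32 in the authors' value table (adjusted p = 0.371). In that table, rebuilt from the scanner files, an undetected miR held the sum of its probe signals in place of 0.1. Each array of the table had also been raised by between 5.11 and 7.00 units before normalization.

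Counted together, 6 of the 7 members had a higher mean in the Non-union group under the main normalization, where 59.4% of all 310 miRs did. Without normalization the same 6 members were higher, where 40.3% of all miRs were, and they were higher under all 19 alternatives. Of the members, 1 was higher with an unadjusted p under 0.05 (miR-99b-3p), beside 9.68% of all miRs, and 0 were lower, beside 4.19%. An FC of 2 or more was reached by 1 member (miR-99b-3p), beside 7.1% of all miRs higher in the Non-union group. No member had an adjusted p under 0.05, and 0.323% of all miRs did. Under the main normalization the groups overlapped for all 7 members. Over all miRs they did not overlap for 1.29% with the Non-union group higher and for 2.58% with it lower.

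The median log2 difference of the 7 members was 0.36, and that of all 310 miRs was 0.15. Without normalization these medians were 0.19 and -0.10, so that the choice of scaling moved the median of all miRs by more than 0.1. Set against the median of all miRs, the difference of miR-99b-5p was 0.34 with normalization and 0.40 without it. The same value was 0.17 and 0.42 for miR-99a-5p, 0.21 and 0.23 for miR-100-5p, 0.26 and 0.29 for miR-125a-5p and 0.13 and 0.29 for miR-125b-5p. For miR-125a-3p it was -0.44 and -0.43. The 5p members thus lay above the median of all miRs, and miR-125a-3p below it, on both scales.

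**Figure D2:**
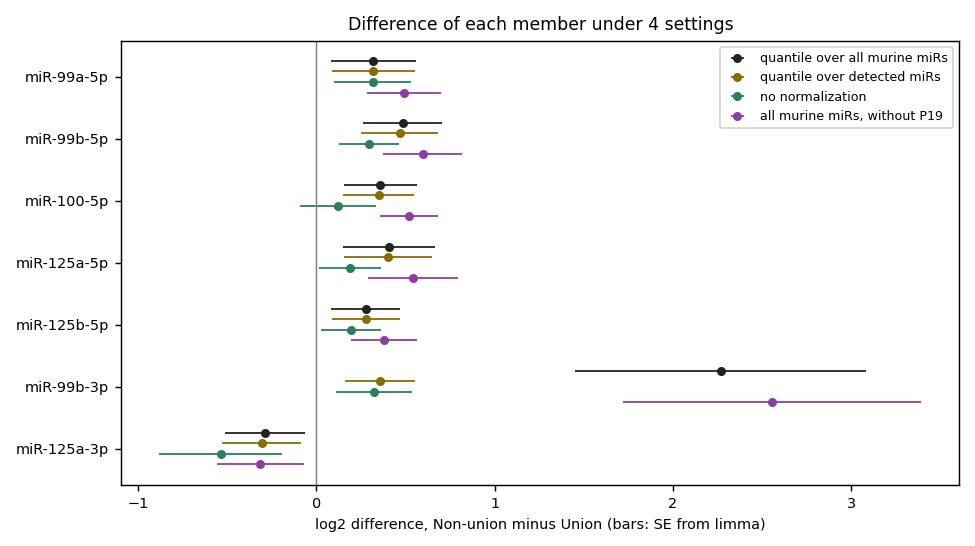
Log2 difference of each member, Non-union minus Union, with the SE from limma as bars, under quantile normalization over all murine miRs, over the detected miRs only, without normalization, and over all murine miRs without the array P19. The 5p members lie between 0.28 and 0.48 under the first setting and between 0.38 and 0.60 without P19, while miR-99b-3p moves from 2.27 to 0.36 with the second setting.

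P19 had the highest normalized value of the Union group for all members but miR-125a-3p. On the normalized scale P19 lay nearer the Non-union mean than the Union mean for 6 of the 7 members, beside 74.5% of all miRs. It exceeded its own group mean by 0.50 for miR-99a-5p, by 0.46 for miR-100-5p, by 0.41 for miR-125a-5p, by 0.32 for miR-99b-5p and by 0.30 for miR-125b-5p. MiR-125a-3p was the exception, where the value of P19 minus the Union mean was -0.07. Without P19, 4 members had an unadjusted p under 0.05 (miR-99a-5p, miR-99b-5p, miR-100-5p and miR-99b-3p), beside 27.4% of all miRs higher in the Non-union group. The groups then did not overlap for miR-99a-5p, miR-100-5p and miR-125b-5p, beside 24.2% of all miRs. No member reached an adjusted p under 0.05 without P19, and 3.87% of all miRs did. The share of members called rose together with that of all miRs.

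The members did not share one order of the arrays. On the normalized scale P17 and P18 were the lowest arrays for miR-99b-5p, miR-125a-5p and miR-99b-3p, the members from chromosome 17 with a higher Non-union mean. P20 was the lowest for miR-99a-5p, followed by P18, and these were also the lowest pair for miR-100-5p. P16 was the highest array for miR-99b-5p, miR-125a-5p, miR-125b-5p and miR-99b-3p and the lowest for miR-125a-3p. Before normalization P16 was the lowest Non-union array for miR-99a-5p, miR-99b-5p, miR-100-5p and miR-125b-5p, so its place in the order depended on the scaling. P16 was the array with the fewest detected miRs.

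**Figure D3:**
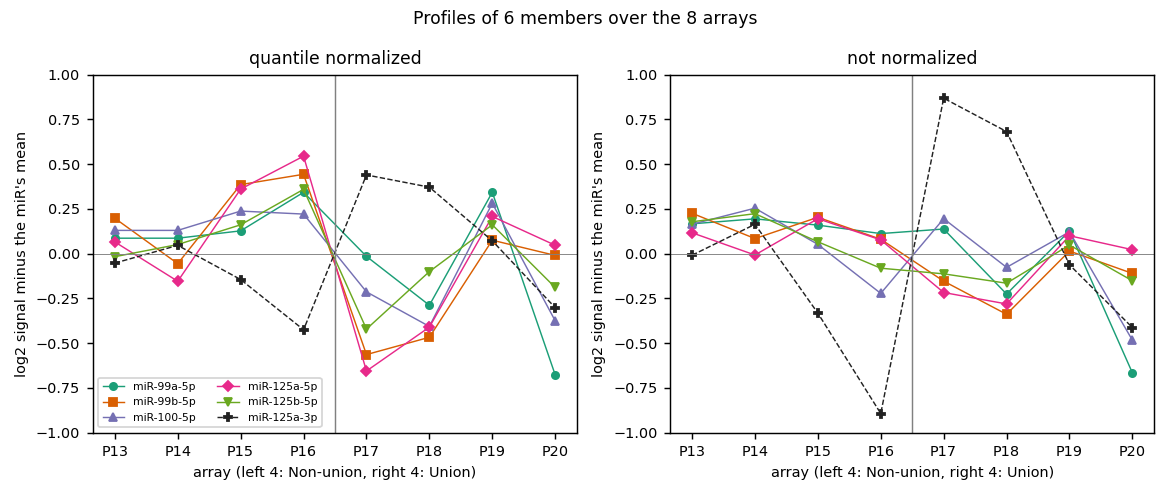
Log2 signal of 6 members on each of the 8 arrays minus the mean of the miR, after quantile normalization (left) and without it (right), with miR-99b-3p left out because most of its normalized values lie below the lowest detected signal. The 5p members are higher on P19 than on P17, P18 and P20 after normalization, and miR-125a-3p (dashed) is highest on P17 and P18.

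Pairs of members that share a hairpin, a cluster or a seed were compared within each array. Without normalization a difference within an array does not depend on its overall brightness, but quantile normalization can change such a difference. None of the 8 pairs differed between the groups beyond the spread between arrays, and the groups overlapped for all 8 after normalization. The widest gap between group means among the pairs of well measured members was that of the 2 arms of the miR-125a hairpin. The log2 signal of miR-125a-5p exceeded that of miR-125a-3p by 2.69, 2.37, 3.08 and 3.54 on P13 to P16 and by 1.48, 1.79, 2.71 and 2.92 on P17 to P20. P17 and P18 had the lowest values, and P19 and P20 lay within the Non-union range. The group difference was 0.70 ± 0.43 (SE; two-sided exact permutation test, p = 0.2, adjusted over the 8 pairs p = 0.8), and 0.73 ± 0.46 without normalization (exact p = 0.2, adjusted p = 0.533). It was 0.45 without P17, 0.86 without P19 and 0.93 without P20.

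The neighbours miR-99b-5p and miR-125a-5p, which lie in the chromosome 17 cluster, kept a nearly constant difference over the arrays. The mean difference was -0.84 ± 0.10 on the Non-union arrays and -0.91 ± 0.09 on the Union arrays (SD, n = 4 each), and the group means differed by 0.08 ± 0.07 (SE; two-sided exact permutation test, p = 0.343, adjusted p = 0.838). The seed mates miR-125a-5p and miR-125b-5p differed between the groups by 0.13 ± 0.16 (SE; exact permutation test, adjusted p = 0.838), and by -0.0027 without normalization. For miR-99a-5p and miR-100-5p, which differ in 1 base, the value was -0.04 ± 0.12 (SE; exact permutation test, adjusted p = 0.857) with normalization and 0.19 ± 0.10 without it (exact permutation test, adjusted p = 0.533). The sign of such small values thus turned with the scaling. For miR-99b-5p and miR-99b-3p the difference was -1.78 ± 0.84 (SE; exact permutation test, p = 0.0857, adjusted p = 0.686), and -0.03 ± 0.21 without normalization. With 4 arrays in each group an adjusted p under 0.05 was out of reach for a single pair, since the smallest that 1 pair alone could get over 8 pairs was 0.229.

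**Figure D4:**
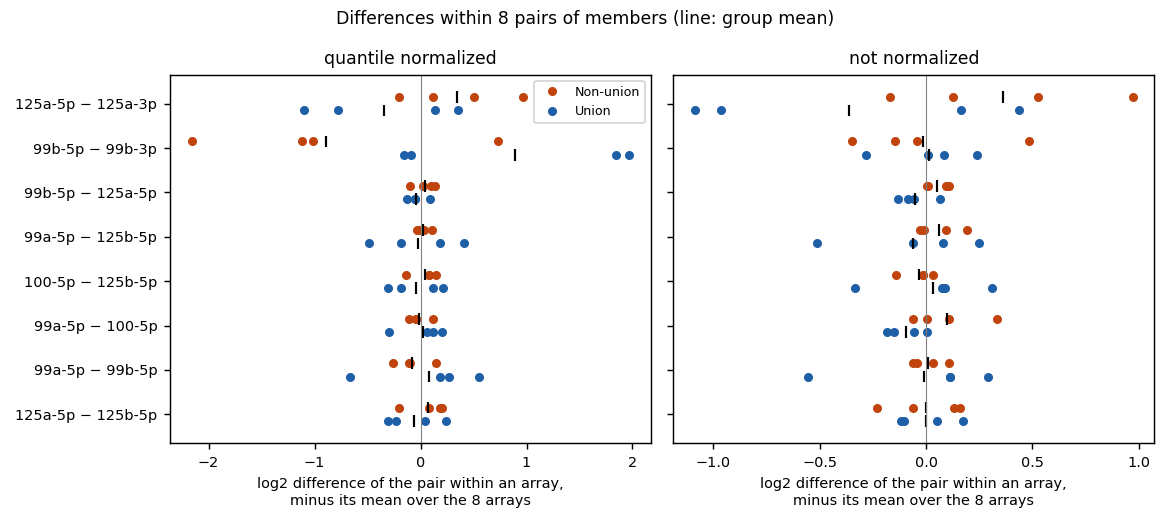
Log2 difference between the members of each of 8 pairs within an array, centred on its mean over the 8 arrays, after quantile normalization (left) and without it (right, with a narrower axis), with 1 point for each array and a line at each group mean. The groups overlap for every pair, and the points of miR-99b-5p and miR-99b-3p spread far wider on the left than on the right.

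Each 5p member was read by 2 probes with 20 spots each, and the probes were compared with each other without normalization. Of these 10 probes, 9 had a higher mean log2 signal in the Non-union group, and for 3 of them the groups did not overlap. Of all 668 probes of the compared miRs with a signal above 0 on every array, 38.6% had a higher mean in the Non-union group and 1.8% did not overlap in that direction. Both probes of miR-99b-5p were among the 3, with log2 differences of 0.33 and 0.28. The third was the dimmer probe of miR-99a-5p, with 0.39, where the brighter probe gave 0.29. For miR-100-5p the brighter probe gave 0.16 and the dimmer probe -0.02, the 1 probe of the 10 without a higher mean. MiR-125a-5p gave 0.25 and 0.17, and miR-125b-5p gave 0.23 and 0.19.

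The 3p members had 4 probes with 10 spots each. All 4 probes of miR-125a-3p were lower in the Non-union group, by log2 differences of -0.38, -0.40, -0.38 and -0.65, and the last of them supplied between 41.5% and 67.0% of the merged signal. The merged signal of miR-99b-3p equalled that of 1 probe on every array. Of its other probes, 1 had a log2 difference of -0.01 and the other 2 had probe signals at or below 0.524 units, which were negative on at least 1 array. Over all members, 0 of 2240 spots were saturated.

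**Figure D5:**
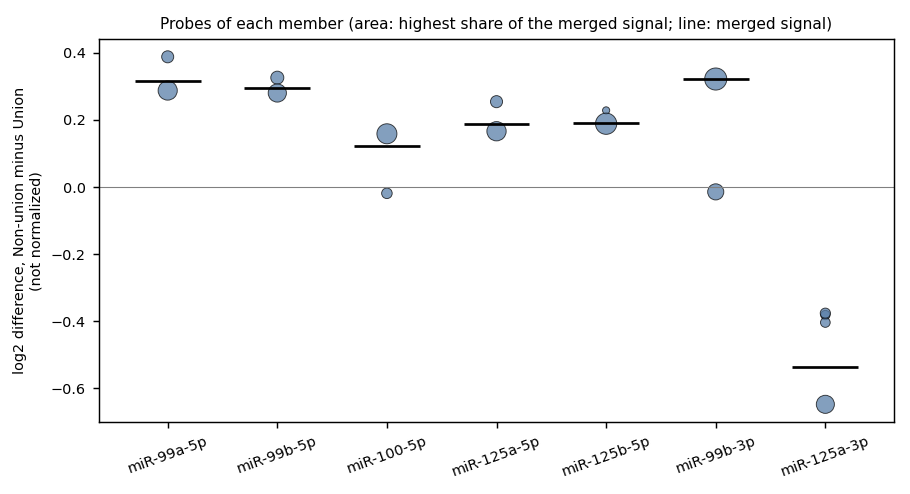
Log2 difference of each probe of a member, Non-union minus Union without normalization, for the 16 of 18 probes with a signal above 0 on all arrays, with the area of a point set by the probe's highest share of the merged signal and a line at the difference of the merged signal. The probes of the 5p members lie between -0.02 and 0.39, and those of miR-125a-3p between -0.65 and -0.38.

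The other products of the same 3 clusters were read next. The 4 remaining arms of the members' hairpins (miR-99a-3p, miR-100-3p, miR-125b-1-3p and miR-125b-2-3p) were detected on 0 of 8 arrays. Of the 6 let-7 arms made from these clusters, 3 were detected on all arrays, and 0 of them passed an unadjusted p of 0.05 in either direction. Let-7c-5p, encoded beside miR-99a and elsewhere, gave 3978, 4017, 3940 and 3659 units on P13 to P16 and 3075, 2718, 3765 and 2681 units on P17 to P20. P19 again lay among the Non-union arrays, and the other Union arrays lay below all of them. Let-7c-5p had a log2 difference of 0.50 (SE 0.25, adjusted p = 0.378), and 0.70 without P19 (SE 0.21, adjusted p = 0.0751). It was 0.31 (SE 0.21, adjusted p = 0.387) for let-7e-5p, encoded between miR-99b and miR-125a, and 0.33 (SE 0.25, adjusted p = 0.401) for let-7a-5p, encoded in the miR-100 cluster and elsewhere. Let-7c-1-3p was detected on P15 alone, at 2.34 units, and let-7e-3p and let-7a-2-3p on no array. MiRs of the let-7 family differ in few bases, and how far their probes bind each other was not tested.

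RefSeq lists 4 more murine miRs with the seed of a member, and 2 of them were analysed here. One was miR-99a-3p, which has the seed of miR-99b-3p and was detected nowhere. The other was miR-351-5p, which shares its first 8 bases with miR-125b-5p and is printed for comparison with it:
miR-351-5p: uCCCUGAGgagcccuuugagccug
It comes from chrX:53053315-53053338 on the - strand, outside the 3 clusters. Its merged signals were 5.62, 4.70, 5.80 and 5.28 units on P13 to P16 and 3.41, 2.42, 4.60 and 3.67 units on P17 to P20. Before normalization the groups thus did not overlap, as for 1.61% of all miRs with the Non-union group higher. The negative control spots separated the groups in the same direction. The errors given by the software were between 15.4% and 31.2% of the signal, and at most 10 spots on an array were well above background. For miR-351-5p the log2 difference was 2.67 (SE 0.94, adjusted p = 0.313) after quantile normalization over all murine miRs, 0.58 over the detected miRs only and 0.63 without normalization (adjusted p = 0.345). After quantile normalization over all murine miRs P17 and P18 lay at -2.08 and -2.12, below 1.11, the log2 of the lowest detected signal. As with miR-99b-3p, the size of the difference of this dim miR depended on how it was normalized.

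Profiles over the 8 arrays were compared by the root mean square distance of normalized log2 signals after each miR was centred on its mean, as a description over arrays that all miRs share. MiR-99b-5p and miR-125a-5p were at a distance of 0.09, which was rank 2 of 309 miRs seen from miR-125a-5p and rank 4 seen from miR-99b-5p, against a median distance of 0.47 from miR-99b-5p to all miRs. Nearest to miR-99b-5p were miR-872-5p (0.07), miR-1839-3p (0.08) and miR-674-3p (0.09), and nearest to miR-125a-5p were miR-1839-3p (0.09), miR-99b-5p and miR-872-5p (0.11). Without normalization the 3 nearest to miR-125a-5p were miR-1839-3p, let-7e-5p and miR-99b-5p, so that all 3 cluster neighbours of chromosome 17 stood close together. MiR-100-5p was the second nearest miR to miR-99a-5p, at a distance of 0.15, after miR-196a-5p (0.11) and before miR-677-3p (0.17). Nearest to miR-100-5p were miR-3069-3p (0.10), miR-677-3p (0.11) and miR-374c-5p (0.14).

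For miR-125b-5p the nearest were let-7e-5p (0.12), miR-320-3p (0.13) and miR-151-5p (0.13), and miR-100-5p stood at rank 10 of 309 with a distance of 0.17. MiR-99a-5p, encoded in a cluster with one of its loci, stood at rank 47 with 0.25. MiR-125a-3p was most like miR-709 (0.10), miR-22-5p (0.16) and miR-30c-5p (0.18), and its own hairpin partner miR-125a-5p stood at rank 202 with a distance of 0.63. Nearest to miR-99b-3p on the normalized scale, where most of its values lay below the lowest detected signal, were miR-342-5p (0.39), miR-191-3p (0.43) and let-7d-3p (0.43). Without normalization its nearest was miR-181b-5p (0.19), and its hairpin partner miR-99b-5p stood at rank 4 of 309 with a distance of 0.26, against a median distance of 0.50 to all miRs.

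Markers of other cell types also varied between the arrays. The summed normalized signal of the 4 cartilage miRs was between 897 and 3925 units in the Non-union group and between 442 and 1033 units in the Union group (two-sided exact permutation test, p = 0.0571), with P16 the highest array. All 4 had an unadjusted limma p under 0.05, beside 9.68% of all miRs higher in the Non-union group and 4.19% lower. For the 3 detected myeloid miRs the sums were between 3377 and 4831 units in the Non-union group and between 4888 and 22220 units in the Union group (two-sided exact permutation test, p = 0.0286), with P20 the highest array and miR-223-5p detected on none. For the 4 detected muscle miRs the Non-union sums lay between 23692 and 57217 units and the Union sums between 38864 and 64562 units (exact permutation test, p = 0.514), with P16 the lowest array. For the 3 detected red blood cell miRs these sums lay between 3430 and 10128 units and between 3014 and 9722 units (exact permutation test, p = 0.914), and miR-486-5p was not analysed here. The sums of the myeloid and leukocyte list did not overlap, at 4831 against 4888 units where the groups came closest, and the cartilage sums overlapped through P14 and P19. Their part in the differences of miR-99/100 and miR-125 was not tested.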

How the data were processed

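Total RNA of 8 calluses was labelled with Cy3 and hybridized to 8 arrays of 1 slide. The authors deposited the output of Agilent Feature Extraction 10.10.1.1 for each array, in which spot, probe and miR signals are intensity values on a linear scale after background correction, with a detection call for each miR. Undetected miRs carry a merged value of 0.1. The authors also deposited a table of log2 values. It could be rebuilt to within 0.0011 by raising each array to a minimum of 0.1 and quantile normalizing on the linear scale before log2, and to within 0.098 with log2 taken first. The groups were taken from the labels.

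For the 1079 murine miRs, merged signals were put on the log2 scale and then quantile normalized together, in the order in which the study's methods name these steps, unlike the deposited table, and those detected on every array (310) were compared with limma 3.58.1 (lmFit and eBayes, two-sided, Benjamini-Hochberg over all 310) in R 4.3.3. An FC is 2 to the power of the log2 difference. Single values were tested by exact permutation over 70 arrangements of the arrays with scipy 1.17.1 in Python 3.11.15. Files were read with pandas 2.3.3 and numpy 2.4.6, and matplotlib 3.10.9 drew the figures. Arrays give no depth.

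The miRs named are the 7 members, the other arms of their hairpins and clusters, murine miRs with the same seed, and for each member the 3 miRs with the nearest profile. Marker lists were muscle (miR-206-3p, miR-1a-3p, miR-499-5p, miR-133b-3p, miR-208b-3p, miR-133a-3p), red blood cells (miR-144-3p, miR-144-5p, miR-486-5p, miR-451), myeloid cells and leukocytes (miR-142-3p, miR-142-5p, miR-223-3p, miR-223-5p) and the cartilage miRs named above. The members and lists were chosen with earlier results of these data known. Coordinates and sequences are those of RefSeq (GRCm38.p6). The 19 alternatives were 4 other normalizations, spot averages (4429 averages at or below 0 were set to 0.1), normexp with an offset of 50 on the median spot and background signals because the files hold no mean spot signal, 2 other filters, a floor of 1 on the signals, the authors' value table, a limma trend, and each array left out in turn. No batch could be fitted, because row and group coincide.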

Additional observations from a re-analysis of the deposited data

Results flagged for a closer look

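In each group of 4 arrays the highest and the lowest value were tested for their gap to the nearest other value as a share of the group's range (Dixon's test). Of 46 groups tested over the members, their relatives, the pairs and the marker sums, 3 had a share above the critical value of the test, and chance gives about 1 in 20, or 2.3 of 46. For miR-99a-5p in the Non-union group, P16 stood apart with a share of 0.840, at a normalized log2 signal of 9.39 against 9.13 to 9.18 on the other arrays. Before normalization P16 was instead the lowest Non-union array for this miR, at 589 units against 609 to 624. For let-7c-5p in the Union group, P19 stood apart with a share of 0.959, at 12.10 against 11.32 to 11.36. For the summed signal of the myeloid and leukocyte miRs in the Union group, P20 stood apart with a share of 0.831, at a log2 value of 14.44 against 12.25 to 12.62.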

How the results depend on the processing

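The sign of each member's log2 difference was the same under the main setting and all 19 alternatives, no member reached an adjusted p under 0.05 under any of them, and the side of the unadjusted threshold of 0.05 changed for 5 members. MiR-99a-5p passed it with scaling to the 75th percentile of the detected miRs (0.54) or of the murine miRs together (0.56). MiR-99b-5p passed it with these scalings (0.52 and 0.54), with normexp (0.30), without a filter (0.48) and in the authors' value table (0.47), and miR-125b-5p passed it with normexp (0.34). MiR-99b-3p lost it with quantile normalization of the detected miRs alone (0.36), with the scalings to the 75th percentile (0.55 and 0.56), without normalization (0.32), with normexp (0.057), without a filter (2.27), in the value table (0.32) and with a limma trend (2.27). The paper counted miR-99b-3p among its significantly different miRs, with a mean FC below 2. Here the threshold was applied to limma over all tested miRs, and the main normalization was not that of the authors' value table. Leaving out each array in turn gave 0.16 to 0.49 for miR-99a-5p, 0.37 to 0.60 for miR-99b-5p, 0.28 to 0.52 for miR-100-5p, 0.26 to 0.54 for miR-125a-5p and 1.97 to 2.74 for miR-99b-3p, and only the omission of P19 took miR-99a-5p or miR-100-5p past the unadjusted threshold. The number of members higher at an unadjusted p under 0.05 was 1 in the main setting (9.68% of all miRs tested), 0 with quantile normalization of the detected miRs alone (6.77%), without normalization (6.13%) and with the limma trend (8.71%), 2 with the scalings to the 75th percentile (10.3% and 10.6%) and with normexp (8.39%), and 0 to 4 with an array left out. It was 4 without P19 (27.4%), 2 without P14 (10.3%) or P20 (10.9%) and 0 without P15 (4.5%), P16 (5.56%), P17 (3.55%) or P18 (4.14%), so that the share of all miRs moved with the count. An FC of 2 or more was reached by 0 members instead of 1 with the 4 other normalizations, the spot averages, normexp and the value table, where between 0.645% and 4.84% of all miRs reached it. Groups that did not overlap, with Non-union higher, were found for 0 members in the main setting (1.29% of all miRs), 2 with the 75th percentile of the murine miRs together (4.19%), 1 without normalization (1.61%), with spot averages (2.26%) and with normexp (2.26%), and 0 to 3 with an array left out. They were 3 without P19 (24.2%) and 1 without P13 (2.9%) or P14 (9.03%). In the other direction, miR-125a-3p did not overlap without P20 (2.88% of all miRs).

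Of the pairs, miR-125a-5p and miR-125a-3p alone kept the sign of their group difference in all 16 alternatives computed for pairs, with 0.45 to 0.93 when an array was left out. For miR-99b-5p and miR-99b-3p it turned to 0.11 with quantile normalization of the detected miRs alone, to 0.24 with normexp and to 0.15 in the value table. With normexp it turned to -0.0046 for miR-99b-5p and miR-125a-5p, -0.071 for miR-99a-5p and miR-125b-5p, -0.13 for miR-100-5p and miR-125b-5p, 0.056 for miR-99a-5p and miR-100-5p and -0.031 for miR-125a-5p and miR-125b-5p. Without normalization, and equally with the 75th percentile scalings, it turned to -0.069 for miR-100-5p and miR-125b-5p, 0.19 for miR-99a-5p and miR-100-5p, 0.0195 for miR-99a-5p and miR-99b-5p and -0.0027 for miR-125a-5p and miR-125b-5p. With an array left out it ranged from -0.11 to 0.20 for miR-99a-5p and miR-125b-5p (negative without P20), from -0.13 to 0.038 for miR-99a-5p and miR-100-5p and from -0.40 to 0.015 for miR-99a-5p and miR-99b-5p (both positive without P17). The cause of these changes was not tested. No paired analysis was possible because the groups share no specimen numbers.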
